A study of Capsicum annuum with 2 samples.

Results

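Pentatricopeptide repeat (PPR) proteins were followed through 5 of their unigenes in the anthers of chili pepper (*Capsicum annuum* L.). A unigene is a transcript assembled *de novo* from the reads, without a genome. The 5 are those whose best match in the protein databases was a PPR protein, by the annotations used here, and which are listed in the deposited expression table of 11387 unigenes. Of these 5, 4 were annotated in the portion of the annotation table used here, and comp56601_c0_seq1 in the list of unigenes that the study chose for RT-PCR. They were chosen with results from these data already known. The table lists unigenes that differed between the lines by the thresholds of the study, so every member had to differ in order to be listed, and its ratio is a description rather than an independent test.

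The lines compared were the cytoplasmic male sterile (CMS) line 121A and the near-isogenic restorer line 121C, which carries a single dominant restorer gene. Both lines took their cytoplasm from the same male sterile source and were backcrossed repeatedly to one inbred line, so the cytoplasm that causes sterility is also present in the fertile line. Buds were taken from 20 plants of a line and sorted into 5 phases of microspore development, and equal amounts of anther RNA from each phase were pooled for 1 library. With 2 libraries in all, the differences in reads have no replicate library as a check. A test on these reads compares libraries, not lines. The study also measured comp198237_c0_seq1 and comp56601_c0_seq1 by real-time RT-PCR, which is not reported here. All intervals are at the 95% level and cover counting error only. They can be too narrow even for that, as reads from PCR-amplified libraries are not independent molecules. The library of 121A held 10744829 counted reads and that of 121C held 9552875. In such mixed tissue, fewer cells of a type and less RNA per cell cannot be told apart. The tissue was not checked by markers, since the portion of the annotation table used here is too small for it. In that portion 2 annotations named pollen, anther, tapetum or microspore, and neither of these unigenes is listed.

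PPR proteins form one of the largest protein families of land plants. They are built of tandem repeats of about 35 amino acids, bind RNA in a sequence-specific way, and act almost entirely in mitochondria and chloroplasts, where they take part in the cleavage, splicing, editing, stability and translation of organellar transcripts. They are encoded in the nucleus. In CMS, a rearranged mitochondrial gene prevents the formation of functional pollen. The nuclear restorers of fertility known from radish, rice and petunia include PPR proteins that reduce the product of such a gene.

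The sequences of the unigenes themselves were not used here. The oligonucleotides that the study designed for 2 of the members are shown because they tie these unigene names to a specific stretch of transcript. Each is written 5′ to 3′ with the direction label of the primer list, and the capitals mark the 5 bases at the 3′ end, from which the polymerase extends.
comp198237_c0_seq1 primer F: aaccaaacgaccctgAAGAG
comp198237_c0_seq1 primer R: ttaaggaggaaaccaTGTGA
comp56601_c0_seq1 primer F: caagagtgatgacatttGGCTC
comp56601_c0_seq1 primer R: ctgggtattctcagattGGACG
The primers of comp198237_c0_seq1 are 20 bases long, and those of comp56601_c0_seq1 are 22 bases long. They belong to the unigenes with the opposite changes described next.

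The members fell into 3 that were higher in the CMS line and 2 that were higher in the restorer line. The first group was comp198237_c0_seq1, comp114586_c0_seq1 and comp112427_c0_seq1, and the second was comp56601_c0_seq1 and comp116121_c0_seq1. Thus 3 of 5 were listed as higher in 121A, against 38.0% of all listed unigenes, and 2 of 5 as higher in 121C, against 62.0%. Since listing itself needed such a difference and the members are few, nothing was read from these shares. The ratios between the lines ranged from 2.06-fold to 9.78-fold in the first group and from 12.1-fold to 27.6-fold in the second.

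In the restorer line, the member with the highest RPKM was comp116121_c0_seq1, whose best match is a partial PPR protein of *Medicago truncatula* with no further name. It had 2 reads in 121A and 49 reads in 121C, that is 0.215 RPKM (interval 0.0260 to 0.776) and 5.92 RPKM (4.38 to 7.83), where RPKM gives reads per kilobase of unigene for every 1000000 reads counted in the library. At an equal share of both libraries, the 49 reads of 121C would correspond to 55.1 reads in 121A. The log2 ratio of 121A over 121C was -4.78 (95% Clopper-Pearson interval -7.87 to -2.85), or 27.6-fold (7.23 to 234). With 2 reads in the lower line the size of this ratio is known only within a wide range.

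The other unigene with high abundance in 121C was comp56601_c0_seq1, annotated as similar to the *Arabidopsis* PPR protein At5g16860. It had 5 reads in 121A, or 0.450 RPKM (0.146 to 1.05), and 54 reads in 121C, or 5.46 RPKM (4.10 to 7.13). In 121A its interval lay below those of the 3 members that were higher in that line, and in 121C it lay above them. The log2 ratio was -3.60 (-5.28 to -2.29), or 12.1-fold (4.90 to 38.9). For both of these unigenes the whole interval lay past a 2-fold difference, as it did for 86.7% of the 7061 listed unigenes that were higher in 121C (53.8% of all 11387).

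Among the members with high abundance in 121A, comp198237_c0_seq1 had the largest ratio. Its best match is a grape protein named after the *Arabidopsis* PPR protein At2g37310. It had 22 reads in 121A and 2 reads in 121C, where 19.6 reads would correspond to an equal share. These are 2.88 RPKM (1.81 to 4.37) and 0.295 RPKM (0.0357 to 1.07), respectively. The log2 ratio was 3.29 (1.27 to 6.42), or 9.78-fold (2.40 to 85.8). This unigene rested on the fewest reads of the 5, with 24 reads in both libraries together, and 15.5% of all listed unigenes had as few or fewer.

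The next 2 were longer, better covered and less different. The unigene comp114586_c0_seq1, similar to the protein named after At1g53330, had 77 reads in 121A, or 3.99 RPKM (3.15 to 4.99), and 28 reads in 121C, or 1.63 RPKM (1.09 to 2.36). Its log2 ratio was 1.29 (0.65 to 1.97), or 2.44-fold (1.57 to 3.91). The unigene comp112427_c0_seq1 is the only member whose best match, the grape protein named after At1g71060, is labelled mitochondrial. It had 88 reads in 121A, or 4.83 RPKM (3.87 to 5.95), and 38 reads in 121C, or 2.35 RPKM (1.66 to 3.22). Its log2 ratio was 1.04 (0.48 to 1.63), or 2.06-fold (1.39 to 3.10). A difference beyond counting error was already needed for listing, and in both the interval of the ratio included values below 2-fold. Thus 1 of the 3 members with high abundance in 121A had its whole interval past 2-fold, beside 67.1% of the 4326 listed unigenes that were higher in 121A (25.5% of all 11387). Over both directions this held for 3 of the 5 members and for 79.3% of all listed unigenes.

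**Figure D1:**
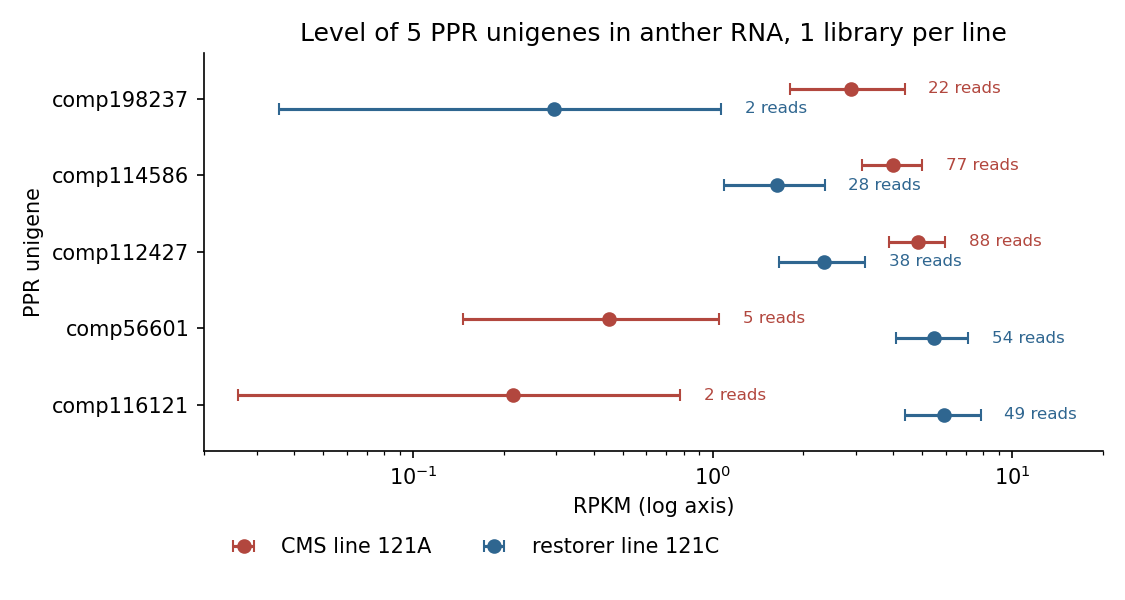
The points are the RPKM (log axis) of each PPR unigene in the CMS line 121A (red) and the restorer line 121C (blue), 1 library each, the bars are exact 95% Poisson intervals, and the labels give the reads. In 121C, comp116121_c0_seq1 and comp56601_c0_seq1 lie at 5.92 and 5.46 RPKM with 49 and 54 reads, against 2 and 5 reads in 121A, while the other members lie higher in 121A.

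The MARS test of the DEGseq package, which the study used, was recomputed on the reads and adjusted by Benjamini-Hochberg over all 11387 listed unigenes. It treats reads as random draws from a library and holds no term for variation among plants. For comp116121_c0_seq1 MARS gave an adjusted p-value of 3.5e-13, and for comp56601_c0_seq1 it gave 1.7e-12. It was 1.9e-05 for comp114586_c0_seq1, 3.7e-05 for comp198237_c0_seq1 and 0.00011 for comp112427_c0_seq1. The largest over all listed unigenes was 0.00021, and 94.9% of them had a smaller p-value than comp112427_c0_seq1, so this member lay near the limit of the list. When biological variation was assumed in place of counting error alone, with a coefficient of variation of 0.4 in edgeR's exact negative binomial test, the adjusted p-value of comp116121_c0_seq1 was 0.00091. That of comp56601_c0_seq1 was then 0.0043, that of comp198237_c0_seq1 was 0.023, and those of comp114586_c0_seq1 and comp112427_c0_seq1 were 0.18 and 0.25. Only comp116121_c0_seq1 stayed within the threshold of 0.001 under that assumption, and narrowly. All these adjustments ran over the listed unigenes alone, which had been selected as different. The adjusted p-values can therefore be smaller than over all assembled unigenes, and are not comparable with the FDR of the study.

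The number of reads also decided how large a ratio had to be for a unigene to be listed. Among the 633 listed unigenes whose total lay within 10% of the 24 reads of comp198237_c0_seq1, the smallest absolute log2 ratio was 2.56 and the median was 4.81. The ratio of comp198237_c0_seq1, 3.29, lay below this median, which pools both directions. Among the 4326 listed unigenes higher in 121A alone, at any depth, comp198237_c0_seq1 ranked 867 by the size of the ratio. Its place among those of its own depth and direction was not tested. For comp116121_c0_seq1, with 51 reads in all, the smallest such value was 1.55 and the median 3.26, and for comp56601_c0_seq1, with 59 reads, they were 1.41 and 2.86. With log2 ratios of -4.78 and -3.60, both members differed more between the lines than these medians, which also pool both directions. Among the listed unigenes higher in 121C alone, at any depth, 50.9% and 59.7% had a larger ratio than these members, respectively. For comp114586_c0_seq1, with 105 reads, the smallest value was 1.06 and the median 2.10, and for comp112427_c0_seq1, with 126 reads, they were 1.0 and 2.0. These 2 members lay close to the smallest listed values.

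**Figure D2:**
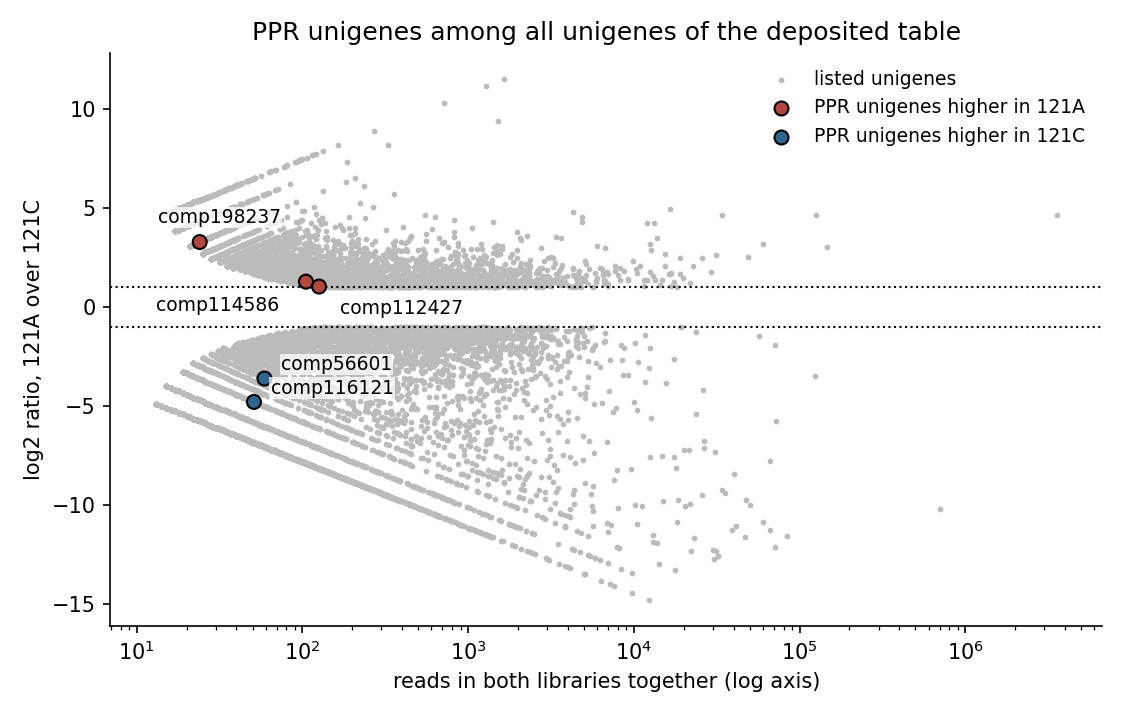
Each grey point is one of the 11387 listed unigenes, with its reads in both libraries together (log axis) against its log2 ratio of 121A over 121C, the larger points are the 5 PPR unigenes, and the dotted lines mark the listing threshold of 1 and -1. The empty band between the lines widens towards few reads, and comp112427_c0_seq1 and comp114586_c0_seq1 sit at its upper edge with log2 ratios of 1.04 and 1.29.

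The ratios of the members depended on how the libraries were scaled to each other. In 121A, 32.3% of all counted reads fell on a single unigene, comp48143_c0_seq1, which took 1.27% of those in 121C. Its annotation was not used here. When the reads of this unigene were left out of both totals, every log2 ratio rose by 0.54. The ratio of comp112427_c0_seq1 became 1.59 (1.02 to 2.18), that of comp114586_c0_seq1 became 1.83 (1.19 to 2.51) and that of comp198237_c0_seq1 became 3.83 (1.81 to 6.97). With these totals, the whole interval lay past 2-fold for all 3 members with high abundance in 121A. The ratios of the other members came closer to equality, with -3.06 (-4.74 to -1.75) for comp56601_c0_seq1 and -4.24 (-7.33 to -2.31) for comp116121_c0_seq1, still past 2-fold over the whole interval. Leaving out the 10 most abundant listed unigenes of each library instead raised every log2 ratio by 0.43, and 2 of the 3 members with high abundance in 121A then had their whole interval past 2-fold. No scaling tried turned the direction of any member. However, every scaling moved the log2 ratios upward, by 0.30 to 1.09, which could not turn the members higher in 121A. The others lay further from equality than the largest of these shifts.

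**Figure D3:**
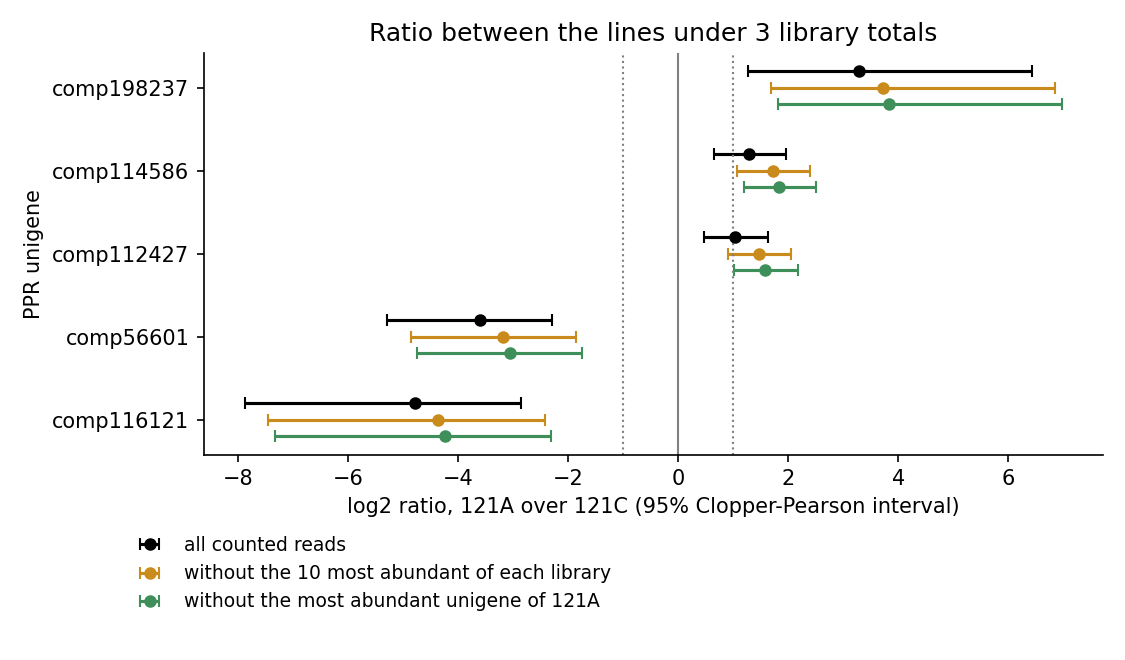
The points are the log2 ratios of 121A over 121C of the 5 PPR unigenes with 95% Clopper-Pearson intervals, under the totals of all counted reads (black), without the 10 most abundant listed unigenes of each library (orange) and without the most abundant unigene of 121A (green). The dotted lines mark 2-fold, and the interval of comp112427_c0_seq1 moves from 0.48 to 1.63 in black to 1.02 to 2.18 in green.

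A comparison of 2 members with each other does not depend on the scaling, since the library totals cancel. It was made for all 10 pairs as the ratio of their ratios, with an exact conditional interval of the odds ratio and without a p-value. Of the 10 intervals, 7 excluded equality. These included all 6 pairs of a member with high abundance in 121A and one with high abundance in 121C, a direction that the listing itself sets. The smallest of these was between comp112427_c0_seq1 and comp56601_c0_seq1, at 24.5-fold (8.92 to 84.8), and the largest was between comp198237_c0_seq1 and comp116121_c0_seq1, at 213-fold (29.0 to 3212). Within the group with high abundance in 121A, comp198237_c0_seq1 differed from comp112427_c0_seq1 by 4.71-fold (1.07 to 43.4), an interval that nearly reached equality. Its difference from comp114586_c0_seq1, 3.97-fold (0.878 to 37.0), was within counting error. The interval also included equality for comp114586_c0_seq1 against comp112427_c0_seq1, at 1.19-fold (0.643 to 2.21), and for comp56601_c0_seq1 against comp116121_c0_seq1, at 2.25-fold (0.349 to 24.7). These intervals are wide, and do not show that the paired members changed alike.

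**Figure D4:**
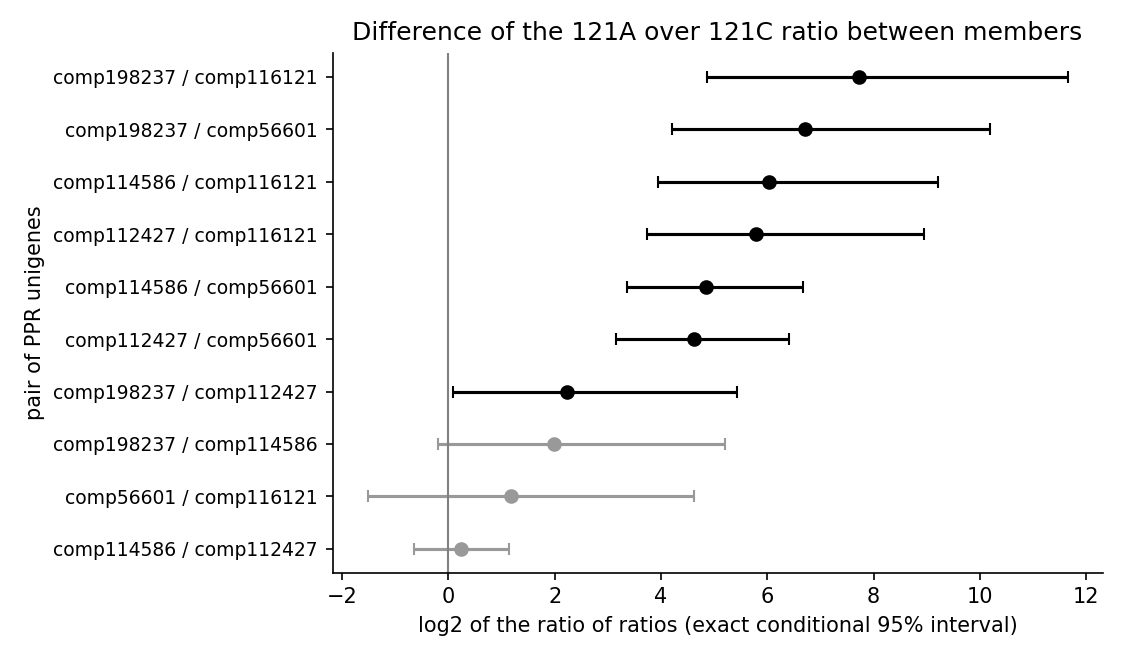
Each point is the log2 of the 121A over 121C ratio of the first named PPR unigene divided by that of the second, with its exact conditional 95% interval. Black intervals exclude equality (7 of 10 pairs) and grey ones include it (3 pairs), of which comp114586_c0_seq1 against comp112427_c0_seq1 is the narrowest.

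The order of the levels, per length on the RPKM scale, differed between the lines. In 121A it was comp112427_c0_seq1, comp114586_c0_seq1, comp198237_c0_seq1, comp56601_c0_seq1 and comp116121_c0_seq1. In this order the single step beyond counting error was that from comp198237_c0_seq1 to comp56601_c0_seq1, with 6.41-fold higher RPKM (2.37 to 21.7). In 121C the order was comp116121_c0_seq1, comp56601_c0_seq1, comp112427_c0_seq1, comp114586_c0_seq1 and comp198237_c0_seq1. The step from comp56601_c0_seq1 to comp112427_c0_seq1 was 2.33-fold (1.51 to 3.62) and that from comp114586_c0_seq1 to comp198237_c0_seq1 was 5.54-fold (1.40 to 48.0). The other neighbours in both lines did not differ beyond their counting intervals. The 2 members at the top in 121C were thus at the bottom in 121A. Since listing itself needed a difference between the lines, it favoured such a change of order, which is a description only. Summed over the 5 members, however, the reads scaled to 1000000 per library were nearly equal, with 18.1 in 121A (194 reads) and 17.9 in 121C (171 reads), since the members with high abundance in 121A held 187 and 68 reads and the others held 7 and 103. Without comp48143_c0_seq1 in the totals, the log2 ratio of this sum was 0.56 instead of 0.01. This sum is not per length and gives the longer members more weight. The RPKM of the 5 members summed to 12.4 in 121A and 15.7 in 121C, so the near-equality depended on the measure.

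Among all listed unigenes the PPR unigenes were of low abundance by RPKM in their higher line. In the line where it was higher, every member lay below the median of all listed unigenes, 9.03 RPKM. By this RPKM, comp116121_c0_seq1 ranked 7548 of 11387, comp56601_c0_seq1 ranked 7941, comp112427_c0_seq1 ranked 8515, comp114586_c0_seq1 ranked 9422 and comp198237_c0_seq1 ranked 10709. Within 121A alone, where the median was 3.07 RPKM, comp112427_c0_seq1 and comp114586_c0_seq1 were above the median, at ranks 4425 and 4985. Within 121C, comp116121_c0_seq1 and comp56601_c0_seq1, at ranks 5937 and 6277, were just below its median of 6.32 RPKM. By reads in both libraries together, not per length, comp112427_c0_seq1 (126) and comp114586_c0_seq1 (105) exceeded the median of 95. The other members did not. By the size of the ratio, comp198237_c0_seq1 ranked 867 of the 4326 listed unigenes with high abundance in 121A, comp114586_c0_seq1 ranked 3559 and comp112427_c0_seq1 ranked 4208. Of the 7061 with high abundance in 121C, comp116121_c0_seq1 ranked 3593, near the middle, and comp56601_c0_seq1 ranked 4219. The median log2 ratio was 1.29 for the 3 members and 2.02 for all listed unigenes in the direction of 121A, and those in the direction of 121C had a median of -4.87.

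The unigenes differed in how much of a PPR protein they could hold. The lengths implied by reads and RPKM were 710 bp for comp198237_c0_seq1, 866 bp for comp116121_c0_seq1, 1035 bp for comp56601_c0_seq1, 1696 bp for comp112427_c0_seq1 and 1794 bp for comp114586_c0_seq1, against a median of 865 bp over all listed unigenes. At 3 bases per codon, comp198237_c0_seq1 could encode at most 236 residues, or 6 whole repeats of 35 residues, and comp116121_c0_seq1 at most 288 residues, or 8 repeats. The longest, comp114586_c0_seq1, could encode at most 598 residues, or 17 repeats, followed by comp112427_c0_seq1 with at most 16 and comp56601_c0_seq1 with at most 9. These are upper limits from length alone, as the reading frames were not used. The members with the fewest reads in their lower line were thus the 2 shortest. No other listed unigene carried the Trinity component number of a member. Forms of the same gene assembled under another component number were not looked for.

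The wider family was seen through the annotation table, of which 1999 entries, the first by name, were used here. A PPR protein was named in 56 of them. Of these, 4 were listed, which is 7.14%, beside 15.9% of all 1999 annotated unigenes. In the direction of 121A, 3 of the 56 were listed, with 7.05% of all annotated unigenes in this direction, and in the direction of 121C 1 of the 56, with 8.8% of all. The other 52 PPR unigenes are not in the table and their reads were not analysed here. The entries used are a portion of the annotation, so no test was run on these shares. The best match was labelled mitochondrial for 12 of the 56, chloroplastic for 5, and carried no organelle label for 39. Of these groups, 1 mitochondrial and 3 unlabelled unigenes were listed and none of the chloroplastic ones.

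An *Arabidopsis* locus was named for 48 of the 56, and 45 different loci occurred. At2g37310, the locus of comp198237_c0_seq1, was also named for comp13667_c0_seq1, which is not listed. Whether these unigenes are pieces of 1 transcript or separate genes is not known here, and reads shared between similar unigenes could have been split between them, since the counting rule is not given in the sources used here. The locus names of comp112427_c0_seq1 and comp114586_c0_seq1 occurred once each. One further entry, comp2155_c0_seq1, was matched to a PPR protein of chili pepper itself and was not listed.

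Other annotation groups connected with organelles or RNA were small, and their counts stand beside the 15.9% of all annotated unigenes that were listed. Of 3 tetratricopeptide repeat unigenes, a helical repeat family related to PPR proteins that mediates contacts between proteins, none was listed. Apart from PPR unigenes, the word mitochondrial occurred in 9 annotations, none of them listed, and chloroplast in 15, of which 1 was listed. This was comp167698_c0_seq1, annotated as an oxygen-evolving enhancer protein of photosystem II, which had 31 reads in 121A against 2 in 121C, or a log2 ratio of 3.78 (1.81 to 6.89). Of 5 annotations naming photosystem, chlorophyll or ribulose, 1 was listed, the phosphoribulose kinase unigene comp116156_c0_seq1 of the Calvin cycle, which had 78 reads against 32, or a log2 ratio of 1.12 (0.50 to 1.76). Both of these unigenes were also higher in 121A, but each was the only listed one of its group. Whether green tissue had a part in the ratios of the PPR unigenes was not tested.

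Of 28 unigenes annotated with RNA-binding, helicase or ribonuclease, 5 were listed, or 17.9%, which is near the 15.9% of all annotated unigenes. All 5 were higher in 121C, as were 176 of the 317 annotated unigenes that were listed (8.8% of all 1999 annotated). Their annotations name RNase H family proteins or a polypeptide with reverse transcriptase and RNase H domains. None of these annotations names an RNA-binding protein, a helicase or an organelle. They had 0 to 3 reads in 121A and 23 to 61 reads in 121C. The count of 0 reads in 3 of them allows up to 3 reads at this depth, as a one-sided limit.

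By the pattern of both lines, the annotated listed unigene nearest to each member was found by its distance in log2(RPKM + 0.01) over the 2 libraries, as a description. For comp198237_c0_seq1 it was comp184307_c0_seq1, annotated as a putative taxadien-5-alpha-ol O-acetyltransferase, with the same 22 and 2 reads at a distance of 0.020. For comp56601_c0_seq1 it was comp105968_c0_seq1, with 7 and 80 reads at a distance of 0.067, and for comp114586_c0_seq1 it was comp105259_c0_seq1, with 69 and 26 reads at 0.041. Both encode uncharacterized proteins, as does comp112426_c0_seq1, with 71 and 24 reads, the nearest to comp112427_c0_seq1 at 0.25. For comp116121_c0_seq1 it was comp23194_c0_seq1, with 1 and 20 reads at 0.22, whose best match is a protein of the honey bee. With 2 libraries such likeness says no more than that reads per length were similar.

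None of the members was placed on a chromosome, since their sequences were not used here. Whether any of them lies at the restorer locus, by which the near-isogenic lines differ, was therefore not tested.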

How the data were processed

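Anther RNA of the CMS line 121A and the restorer line 121C was sequenced as 1 Illumina library per line. By the study's methods, base calls were made with CASAVA, also named in the submitters' processing notes. Reads with over 10% of bases below Q20 or under 70 bases were removed, and Trinity assembled the reads of both lines. The aligner, its settings and the counting rule are not given in the sources used here. The authors deposited counts, the raw reads on each unigene, and RPKM, which the authors computed from counts, length and library total. A log2 ratio, a q-value, a pass mark and a direction deposited by the authors were not used. All 11387 listed unigenes had passed the study's thresholds (FDR of at most 0.001, absolute log2 ratio of at least 1), so an alternative can remove calls but add none.

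Library totals were recovered as the numbers that make all unigene lengths whole (largest deviation 5.5e-05) and lie above the listed reads. Log2 ratios used 0.5 read in place of 0. Clopper-Pearson and Poisson intervals and odds ratios used scipy 1.17.1 in Python 3.11.15. MARS was recomputed from its formula and tested on simulated data with 200 changed unigenes. A quasi-likelihood fit in edgeR needs replicates and was not possible. The exact negative binomial test (edgeR 4.0.16, R 4.3.3) was run with assumed coefficients of variation of 0.2 and 0.4 instead. Other alternatives were 4 scalings, 1 or 0.01 RPKM added before taking logs, a filter at a mean of 1 RPKM, reads summed per Trinity component, an exact binomial test, a log2 threshold of 2, 99% intervals and Woolf intervals for pairs. Members, lists and rules were chosen with earlier results of these data known. Named are the members, PPR unigenes with a member's best match, listed unigenes of a member's component, the nearest annotated unigene, and the most abundant unigene of a line where scaling turned on it. Other names were chosen after their values were seen.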

Additional observations from a re-analysis of the deposited data

How the results depend on the processing

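No alternative turned the direction of a PPR unigene, but this was no test of direction. Every scaling moved the log2 ratios upward, and the pseudocounts, tests, filters and thresholds cannot change a sign. With a pseudocount of 1 RPKM, the log2 ratios of comp112427_c0_seq1 and comp114586_c0_seq1 fell below the threshold, to 0.80 and 0.92. When an absolute log2 ratio of 2 was required, the same unigenes, with 1.04 and 1.29, did not pass, and 2218 instead of 4326 listed unigenes were called higher in 121A. With edgeR's exact negative binomial test at an assumed coefficient of variation of 0.2, the adjusted p-values of comp198237_c0_seq1 (log2 ratio 3.29), comp114586_c0_seq1 (1.29) and comp112427_c0_seq1 (1.04) were 0.0011, 0.016 and 0.038, past the threshold of 0.001, and 2084 listed unigenes were called higher in 121A. At 0.4, comp56601_c0_seq1 (-3.60) also missed it, and 181 and 2623 listed unigenes were called higher in 121A and 121C.

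The number of members with high abundance in 121A whose whole interval lay past 2-fold, 1 in the values reported, was 2 when the 10 most abundant unigenes of either library were left out of the totals. It was 3 without comp48143_c0_seq1 and 3 with median-of-ratios size factors, and 0 with 99% intervals. Median-of-ratios factors moved every log2 ratio by 1.09, and 4466 listed unigenes were then called higher in 121C. TMM factors moved them by 0.30. Both methods assume that most unigenes do not differ, and here they were computed on unigenes all listed as different. The exact binomial test, the RPKM minimum, the sums per component (which held 1 listed unigene for each member) and the pseudocount of 0.01 RPKM changed no call of a member. No paired analysis was possible because each line has 1 library.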
